A study of Mus musculus with 4 samples.

Results

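The genes described here are 10 genes of the unfolded protein response (UPR), chosen by name from the 31053 genes of the count matrix and followed across chondrocyte and osteoblast stages and blood cells of the mouse tibia. They were the endoplasmic reticulum (ER) chaperones Hspa5 (BiP), Hsp90b1 (GRP94) and Pdia4, the stress sensor Atf6, the transcription factors Xbp1, Creb3l1 and Creb3l2, and Atf4, Ddit3 (CHOP) and Trib3 of the ATF4 arm. All 10 were found in the matrix and reached 10 UMIs per 1000000 UMIs (CPM) in at least 1 named cell class. A UMI, or unique molecular identifier, stands for 1 captured transcript.

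Secreted and membrane proteins are folded in the ER, and unfolded protein there activates the sensors PERK, IRE1 and ATF6. PERK phosphorylates the translation factor eIF2α, which lowers general translation while ATF4 is translated more, IRE1 splices the Xbp1 mRNA, and ATF6 is cut in the Golgi to release a transcription factor. Their targets include chaperones, genes of ER-associated degradation and, downstream of ATF4, Ddit3 and Trib3. CREB3L1 (OASIS) and CREB3L2 (BBF2H7) are cut in the same manner as ATF6 and are known for the secretion of bone and cartilage collagen, respectively. Chondrocytes and osteoblasts secrete large amounts of collagen. The counts measure mRNA, so that splicing of Xbp1, cleavage of ATF6, CREB3L1 or CREB3L2 and translation of Atf4 were not seen.

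The data came from 1 library of single cells of the proximal and distal tibia at postnatal day 6 (P6), made from 2 tibiae of 1 male mouse pooled together, and the 4 sequencing entries hold this same library. The genotype was Col10a1Cre;Rosa26-Tdtomato;Irx3 +/Δ;Irx5 +/-, which the labels call an Irx3/5 heterozygous control. Every cell described here comes from that 1 mouse, and no other mouse genotype was compared. The Cre, expressed from Col10a1, marks hypertrophic chondrocytes (HCs) and their descendants with a tdTomato transcript that carries the WPRE sequence. The study writes the Irx3 allele as ΔHC, so cells in which the Cre acted may lack an Irx3 copy that others keep. Its part in differences between HCs or their descendants and other cells cannot be told apart from that of stage or lineage. With 1 mouse there were no replicates: no test was made, and each interval below is a 95% interval of counting error alone.

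Of 14181 barcodes, 8255 cells were kept, with a median of 13957 UMIs, and formed 26 clusters, of which 22 were named into 18 classes. The chondrogenic classes held 1961 cells, named from their markers as resting, maturing, proliferating, pre-hypertrophic (pre-HC-like) and hypertrophic (HC-like). The osteogenic classes held 957 cells, immature and mature osteoblast-like. Blood classes held 3174 cells and stromal and vessel classes 1442 cells, and 721 cells remained unnamed. The HC-like class was the smallest of the 18, with 92 cells. All 5 of its markers were above 10 CPM, Col10a1 among them at 11921 CPM against 525 CPM in pre-HC-like cells, and 80.4% of its cells carried more than 14 WPRE UMIs. The HC-like name required Col10a1 among the 10 leading genes of the cluster, so its level is no separate support for the name. The study set the WPRE cutoff in these data to match its measured share of tdTomato-positive HCs. A high share in HC-like cells was thus partly set in advance. The limit of 10 CPM is also a weak one, since Col10a1 was at 18.4 CPM in erythroid-like cells. Of the 5 markers, 1 was among the 20 leading genes. Median depth was 35782 UMIs in HC-like cells, 28403 in pre-HC-like cells and 11153 and 17929 in immature and mature osteoblast-like cells. The UPR genes and the pathway genes below took no part in the clustering.

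Among the 8 of the 10 genes with a promoter in the RefSeq table (GRCm38.p6, 250 bases before to 50 after the gene start), a match to a known UPR element was found in 3. Creb3l1 and Atf6 have no entry there. The ER stress element (ERSE), the element through which ATF6 acts on chaperone genes, was searched as CCAAT, 9 bases and CCACG, and was in 0.119% of 32851 promoters. ERSE-II was searched as ATTGG, 1 base and CCACG (0.0365%), the UPR element as TGACGTGG (0.676%) and the CARE element of ATF4 as TGATGNAA (3.97%), all on both strands. Hspa5 had 1 ERSE, Hsp90b1 2 and Trib3 1 CARE, and Pdia4, Xbp1, Atf4, Ddit3 and Creb3l2 had none of the 4. The windows that held a match are printed 5′ to 3′ with the match in capitals, together with Fgf21, a secreted hormone gene of the ATF4 arm described further below. They lie at chr2:34771840-34772139 (Hspa5, plus strand), chr10:86705395-86705694 (Hsp90b1, minus strand), chr2:152344011-152344310 (Trib3, minus strand) and chr7:45615441-45615740 (Fgf21, minus strand).
Hspa5: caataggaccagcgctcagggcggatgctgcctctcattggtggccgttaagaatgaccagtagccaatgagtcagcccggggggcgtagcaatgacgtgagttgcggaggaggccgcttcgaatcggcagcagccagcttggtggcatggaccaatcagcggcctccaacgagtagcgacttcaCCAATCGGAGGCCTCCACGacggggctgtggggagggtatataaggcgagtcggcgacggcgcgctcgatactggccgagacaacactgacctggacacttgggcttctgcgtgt
Hsp90b1: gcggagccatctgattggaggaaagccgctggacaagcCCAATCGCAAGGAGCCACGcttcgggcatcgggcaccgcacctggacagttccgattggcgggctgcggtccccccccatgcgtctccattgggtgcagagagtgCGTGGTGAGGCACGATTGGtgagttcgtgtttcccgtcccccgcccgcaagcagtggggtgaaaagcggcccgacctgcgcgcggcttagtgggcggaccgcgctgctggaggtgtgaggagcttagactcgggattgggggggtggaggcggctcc
Trib3: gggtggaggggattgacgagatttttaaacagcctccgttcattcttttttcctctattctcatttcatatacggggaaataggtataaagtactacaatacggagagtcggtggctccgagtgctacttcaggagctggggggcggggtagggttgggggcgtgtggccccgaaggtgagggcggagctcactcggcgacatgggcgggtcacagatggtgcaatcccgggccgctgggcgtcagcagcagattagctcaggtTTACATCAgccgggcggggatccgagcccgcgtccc
Fgf21: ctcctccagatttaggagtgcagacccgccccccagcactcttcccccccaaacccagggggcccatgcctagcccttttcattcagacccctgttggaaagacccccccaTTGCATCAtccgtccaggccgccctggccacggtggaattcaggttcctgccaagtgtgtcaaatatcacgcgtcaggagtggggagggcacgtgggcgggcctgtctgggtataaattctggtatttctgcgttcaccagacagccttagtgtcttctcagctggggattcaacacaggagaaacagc
The Hspa5 ERSE begins 65 bases before the gene start. The Hsp90b1 matches begin 212 and 107 bases before it, the second on the opposite strand. The Trib3 match lies after the start. A match says only that these letters are present, and a missing match only that the exact letters are absent from this window.

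HC-like cells had the highest level of 6 of the 10 genes among the 18 classes, namely Hspa5, Hsp90b1, Pdia4, Trib3, Xbp1 and Atf6. Of all genes with at least 10 CPM in a named class, 9.82% were highest there. The 10 genes, and the pathway lists below, were chosen with earlier results of these data known. Shares over all genes are therefore given beside the counts as a description only. Creb3l1 was highest in mature osteoblast-like cells, Creb3l2 in resting chondrocyte-like cells, Atf4 in monocyte-like cells and Ddit3 in erythroid-like cells. The intervals of neighbouring classes overlapped in 127 of 170 neighbouring pairs, so that much of the order is not resolved. Such overlaps were not counted over all genes. The top itself was not resolved for Atf6, between HC-like (54.1 to 71.5 CPM) and immature osteoblast-like cells (52.5 to 64.4 CPM). Nor was it for Atf4, between monocyte-like (702 to 749 CPM) and resting chondrocyte-like cells (654 to 709 CPM).

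**Figure D1:**
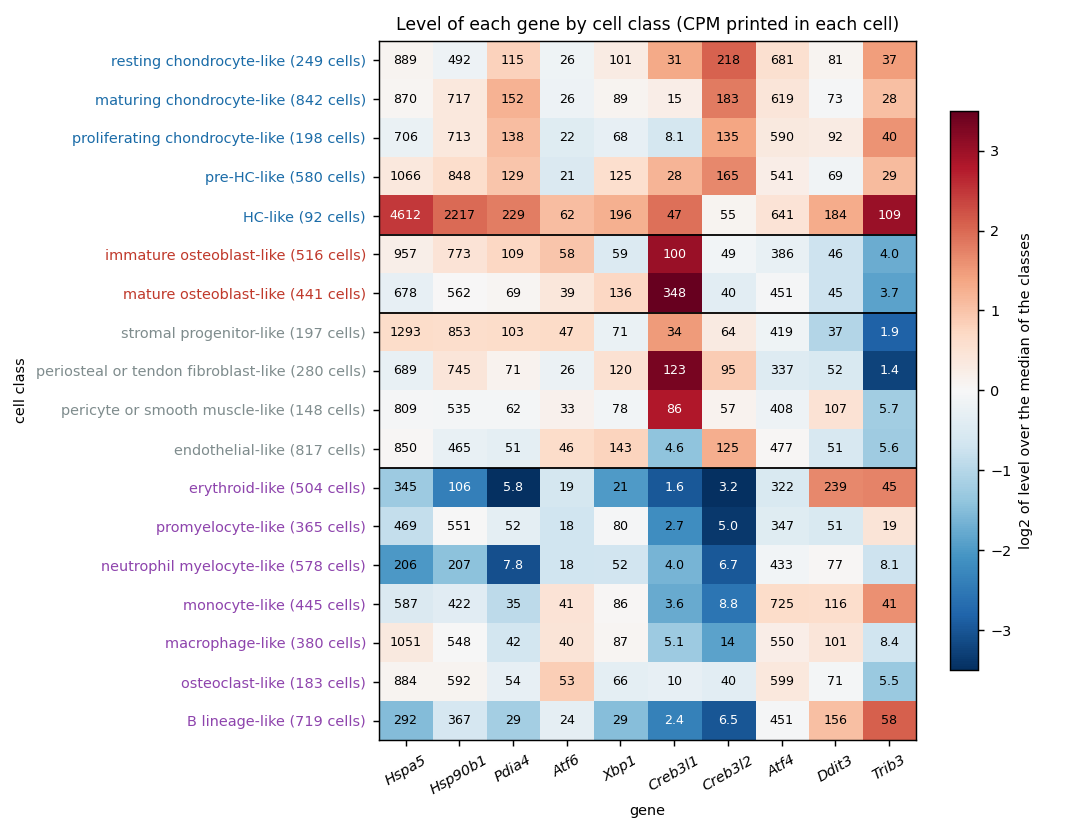
Level of each of the 10 genes (columns) in the 18 named classes (rows, with their cells). The number in each box is CPM, the colour is log2 of that level over the median of the classes, and row names are blue for chondrogenic, red for osteogenic, grey for stromal or vessel and purple for blood classes. The HC-like row is darkest for Hspa5 (4612 CPM), Hsp90b1 (2217 CPM) and Trib3 (109 CPM).

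The ER chaperones were highest in HC-like cells. Hspa5 (chr2:34771970-34777547, plus strand), the Hsp70 of the ER lumen that also holds the sensors inactive, was at 4612 CPM (interval 4539 to 4686) in HC-like cells. It was at 889, 870.2, 706 and 1066 CPM in resting, maturing, proliferating and pre-HC-like cells and at 957 and 678 CPM in immature and mature osteoblast-like cells. The next class after HC-like cells was the stromal progenitor-like class at 1293 CPM, 3.57 times lower, and the blood classes lay between 206 CPM (neutrophil myelocyte-like) and 1051 CPM (macrophage-like). Thus the 6 other chondrocyte and osteoblast stages lay within the range of the stromal and blood classes, and the HC-like class was above all of them. HC-like cells exceeded pre-HC-like cells by a log2 ratio of 2.11 (2.08 to 2.14), or 4.32-fold.

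Hsp90b1 (chr10:86690209-86705509, minus strand), the Hsp90 of the ER, followed the same order at the top. It was at 2217 CPM (2166 to 2268) in HC-like and 848 CPM in pre-HC-like cells, a log2 ratio of 1.39 (1.35 to 1.43). The other chondrogenic classes held 492 to 717 CPM, osteoblast-like cells 773 CPM (immature) and 562 CPM (mature), and blood cells 106 CPM (erythroid-like) to 592 CPM (osteoclast-like). Pdia4 (chr6:47796141-47813430, minus strand), a protein disulfide isomerase that forms and rearranges disulfide bonds, was at 229 CPM (213 to 246) in HC-like cells. Here the step was smaller, since the other chondrogenic classes already held 115 to 152 CPM and the log2 ratio over pre-HC-like cells was 0.82 (0.70 to 0.94). Pdia4 was at 5.75 to 53.7 CPM in the 7 blood classes and at 69.1 to 229 CPM in the 7 chondrogenic and osteogenic classes. The stromal and vessel classes held 51.4 to 103 CPM, which reaches into the blood range. The share of all genes with ranges apart in this way was not counted.

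HC-like cells were uneven in the chaperones. The 10th percentile, median and 90th percentile of Hspa5 over the 92 cells were 537, 2839 and 11951 CPM, whereas in pre-HC-like cells they were 576, 949 and 1611 CPM. Of the HC-like cells, 63 (68.5%) exceeded the 90th percentile of pre-HC-like cells in Hspa5 and 37 (40.2%) in Hsp90b1. The 14 cells richest in Hspa5 (15.2%) held 50% of its UMIs in the class, whereas 174 of 580 cells did so in the pre-HC-like class. For Hsp90b1, 12 HC-like cells and 183 pre-HC-like cells held 50%. Its median over cells was 1053 CPM in HC-like and 784 CPM in pre-HC-like cells, closer together than the class levels. The lower part of the HC-like class thus reached down to pre-HC-like levels and the upper part went far beyond them. Across the 92 cells, the log2 levels of Hspa5 and Hsp90b1 correlated at r = 0.83, that of Hspa5 and Atf4 at 0.45 and those of Hspa5 with Col10a1 and Col2a1 at 0.36 and -0.04, as a description of cells of 1 library that share depth and dissociation.

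**Figure D2:**
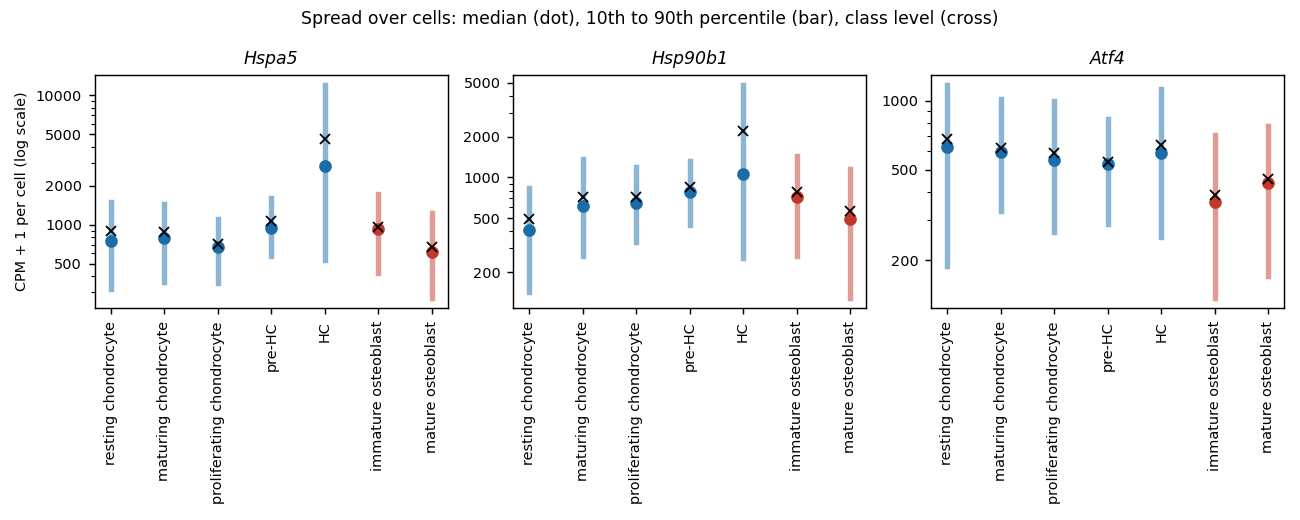
Spread of Hspa5, Hsp90b1 and Atf4 over single cells (CPM + 1, log scale) in the 7 chondrogenic (blue) and osteogenic (red) classes. Dots are medians, bars run from the 10th to the 90th percentile and crosses mark the class level from summed UMIs. For Hspa5 the HC-like bar reaches 11951 CPM and its cross lies above its median of 2839 CPM.

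The sensor Atf6 and the transcription factor Xbp1 differed less between stages than Hspa5 did. Atf6 (chr1:170704674-170867771, minus strand) was low throughout, at 62.3 CPM (54.1 to 71.5) in HC-like cells and 58.3 CPM (52.5 to 64.4) in immature osteoblast-like cells, whose intervals overlap. The mature osteoblast-like class held 38.8 CPM, with values between 20.6 and 26.5 CPM in the other 4 chondrogenic classes. HC-like cells were therefore nearer to immature osteoblast-like than to pre-HC-like cells, over which the log2 ratio was 1.55 (1.31 to 1.79). Xbp1 (chr11:5520659-5525893, plus strand), whose spliced product drives genes of ER expansion and degradation, was at 196 CPM (181 to 212) in HC-like and 125 CPM in pre-HC-like cells, a log2 ratio of 0.64 (0.51 to 0.76). In the osteogenic classes it was at 59.2 CPM (immature) and 136 CPM (mature), and endothelial-like cells held 143 CPM. Among blood classes it lay between 21.0 CPM (erythroid-like) and 87.3 CPM (macrophage-like).

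Creb3l1 and Creb3l2, the closest relatives among the 10 genes, had opposite maxima. Creb3l1 (chr2:91982328-92024502, minus strand) was at 348 CPM (336 to 361) in mature and 99.7 CPM (92.1 to 108) in immature osteoblast-like cells. Periosteal or tendon fibroblast-like cells followed mature osteoblast-like cells at 123 CPM, and chondrogenic classes held 8.09 CPM (proliferating) to 47.1 CPM (HC-like). Creb3l2 (chr6:37327255-37442146, minus strand) was at 218 CPM (203 to 234) in resting, 183 CPM in maturing, 135 CPM in proliferating and 165 CPM in pre-HC-like cells, and at 55.3 CPM (47.6 to 64.0) in HC-like cells. Osteoblast-like cells continued this low level with 48.5 CPM (immature) and 39.8 CPM (mature). The drop of Creb3l2 thus lay between pre-HC-like and HC-like cells, at a log2 ratio of -1.56 (-1.77 to -1.35), while the large step of Creb3l1 lay between immature and mature osteoblast-like cells, at 1.79 (1.67 to 1.92). The immature level of Creb3l1 came from a small part of the cells. Of 516 immature osteoblast-like cells, 39 held 50% of its UMIs and 46.7% had any. Of 441 mature osteoblast-like cells, 95 held 50% and 89.8% had any.

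In blood cells both genes were low, less so in osteoclast-like cells. Creb3l1 was at 1.58 to 10.0 CPM and Creb3l2 at 3.16 to 40.4 CPM there, the upper ends being osteoclast-like. In mature osteoblast-like cells there were 5.70 Creb3l1 UMIs per 1000 UMIs of Col1a1, the bone collagen gene. There were 21.5 in immature osteoblast-like and 8.46 in maturing chondrocyte-like cells. In the 6 other blood classes there were 7.26 to 14.2, against 80.1 in osteoclast-like cells. Whether Creb3l1 UMIs of blood cells were RNA released by other cells was not tested. After thinning each cell to 5000 UMIs, 71.7% (67.2 to 75.8) of mature osteoblast-like cells and 0.596% of erythroid-like cells had a Creb3l1 UMI (89.8% and 2.18% before thinning), with 0 and 1 cells left out as too shallow. Median depths of these classes were 17929 and 12467 UMIs.

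**Figure D3:**
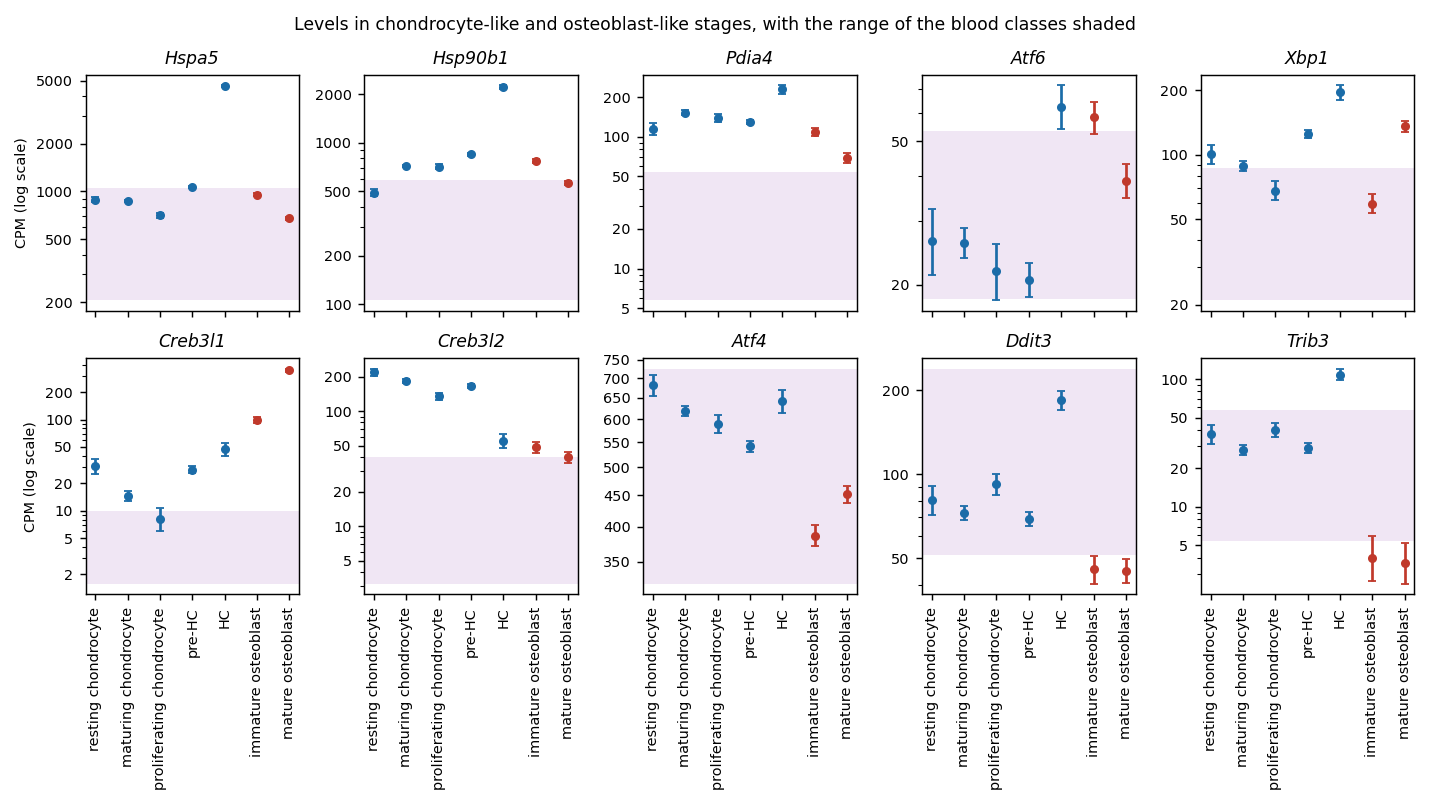
CPM (log scale) of each gene in the 5 chondrogenic (blue) and 2 osteogenic (red) classes, with 95% counting intervals. The shaded band is the range over the 7 blood classes. Hspa5, Hsp90b1, Pdia4 and Trib3 peak at the HC-like class, Creb3l1 is highest at mature osteoblast-like cells (348 CPM) and Creb3l2 at resting chondrocyte-like cells (218 CPM).

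In the ATF4 arm, Atf4 itself was nearly even and its downstream genes were not. Atf4 (chr15:80255184-80257541, plus strand) ranged only from 322 CPM (erythroid-like) to 725 CPM (monocyte-like) over the 18 classes, a 2.25-fold range and the smallest of the 10 genes. It was at 641 CPM in HC-like and 541 CPM in pre-HC-like cells. Ddit3 (chr10:127290774-127296288, plus strand), a transcription factor of the death-promoting branch, was at 239 CPM (227 to 251) in erythroid-like and 184 CPM (170 to 200) in HC-like cells, followed by 156 CPM in B lineage-like cells. The other chondrogenic classes held 69.4 to 91.9 CPM and immature and mature osteoblast-like cells 45.6 and 45.1 CPM. In HC-like cells 9 of 92 cells held 50% of the Ddit3 UMIs. Ddit3 overlaps Mars on the opposite strand, and Mars was at 31.0 CPM in HC-like and 27.8 CPM in pre-HC-like cells.

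Trib3 (chr2:152337422-152344032, minus strand), a pseudokinase induced downstream of ATF4 and CHOP, marked chondrogenic and some blood cells and was almost missing from the osteogenic and stromal side. It was at 109 CPM (97.6 to 120) in HC-like cells, 27.7 to 40.1 CPM in the other 4 chondrogenic classes, and 57.6, 44.7 and 40.7 CPM in B lineage-like, erythroid-like and monocyte-like cells. Immature and mature osteoblast-like cells held 4.02 CPM (2.62 to 5.89) and 3.66 CPM (2.51 to 5.17), and the stromal and vessel classes 1.41 to 5.74 CPM. After thinning, 41.3% (31.1 to 52.1) of HC-like cells, 10.9% of pre-HC-like cells and 0.996% of immature osteoblast-like cells had a Trib3 UMI (77.2%, 44.3% and 3.49% before thinning). An unnamed cluster of 157 cells led by Car1 and Pf4 had Trib3 at 119.9 CPM, the highest level of all clusters.

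The 10 genes were next counted in 4 comparisons beside all genes. A gene counts as past the fold here when its CPM, with 1 added, differs at least 2-fold. In HC-like over pre-HC-like cells, 5 of 10 were higher (Hspa5, Trib3, Atf6, Ddit3 and Hsp90b1), where 23.1% of 7953 genes with at least 10 CPM in either class were. Creb3l2 alone was lower, against 5.93% of all genes. The pre-HC-like class pooled 2 clusters, of 366 and 214 cells, with Col10a1 at 292 and 1008 CPM. Ddit3 was at 81.0 and 45.5 CPM in them, Creb3l1 at 37.1 and 10.1 CPM and Hspa5 at 1036 and 1129 CPM. Ratios of Ddit3 and Creb3l1 therefore depend on this pooling. The median log2 ratio was 1.10 over the 10 genes and 0.47 over all genes. Scaling by the median of ratios moved the median of all genes from 0.47 to 0.02 and left 3 of the 10 genes at least 2-fold higher (Hspa5 at 1.65, Trib3 at 1.41 and Atf6 at 1.10) and Creb3l2 lower (-2.02), with Ddit3 at 0.93 and Hsp90b1 at 0.92. It turned the ratio of Atf4 from 0.24 to -0.22. Under it 943 genes were higher and 891 lower, against 1839 and 472 with all UMIs as the scale.

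Between mature and immature osteoblast-like cells, Creb3l1 and Xbp1 (log2 ratio 1.19, 1.03 to 1.35) were at least 2-fold higher, which was true of 4.48% of 8451 genes. None of the 10 was at least 2-fold lower, against 14.2% of all genes. At the main settings the chaperones had lower levels in the mature class, with log2 ratios of -0.50 (Hspa5), -0.46 (Hsp90b1) and -0.65 (Pdia4), near the median of all genes of -0.44. Their direction depended on the settings. Over all settings the ratios ran from -0.73 to 0.75 (Hspa5), -0.56 to 0.36 (Hsp90b1) and -0.72 to 0.13 (Pdia4). The classes compared were not the same in all of these settings. With 3000 variable genes no cluster was HC-like, and the mature osteoblast-like class held 514 cells instead of 441. The median of all genes was -0.22 with abundant genes left out of the total, where 512 genes were higher and 784 lower, and -0.10 under the median of ratios, where 588 were higher and 616 lower, against 379 and 1196. Matrix genes took 19.4% of UMIs in mature and 4.10% in immature osteoblast-like cells.

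Between osteogenic and chondrogenic cells, Creb3l1 was higher at a log2 ratio of 3.38 (3.29 to 3.48), and 17.4% of 8289 genes were at least 2-fold higher. Creb3l2 at -1.89 and Trib3 at -2.95 (-3.25 to -2.65) were lower, as were 9.43% of all genes. With 3000 variable genes the ratio of Trib3 was -0.57, but the classes compared were not the same there. No cluster was then HC-like, and the immature and mature osteoblast-like classes held 739 and 514 cells instead of 516 and 441. The median was -0.53 over the 10 genes and 0.22 over all. Between chondro-osteogenic and blood cells, 5 of 10 genes were higher: Creb3l1 (4.01), Creb3l2 (3.56), Pdia4 (2.09), Hspa5 (1.16) and Hsp90b1 (1.10), against 21.5% of 8952 genes. None was lower, against 24.6% of all genes. The median of the 10 genes was 1.01 and that of all genes -0.22. The ratio of Creb3l1 was lower, at 3.07 to 3.14, with resolution 1.5, 3000 variable genes, pathway genes kept among the variable genes, a minimum of 2000 genes or up to 20% mitochondrial UMIs, and 3.21 with 5 CPM added. Under the median of ratios the median of all genes was 0.07 in osteogenic over chondrogenic and -0.05 in chondro-osteogenic over blood cells.

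**Figure D4:**
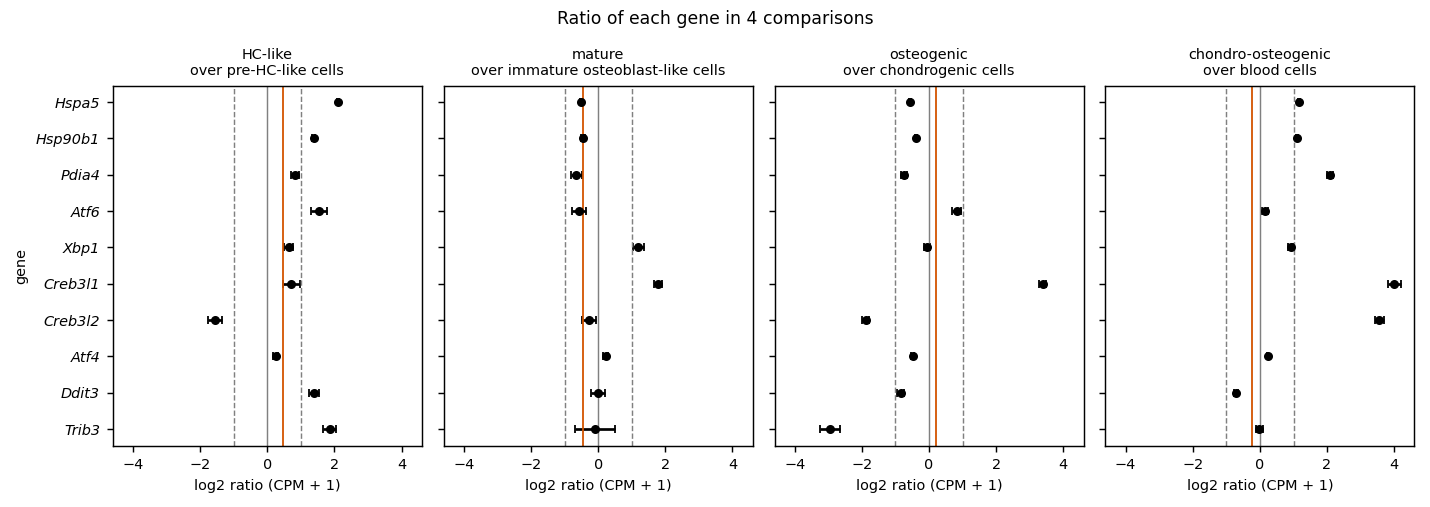
Log2 ratio of CPM + 1 of each gene in the 4 comparisons, with 95% counting intervals. Dashed lines mark 2-fold, the grey line 0 and the orange line the median of all genes with at least 10 CPM in either side. The HC-like panel has 5 genes beyond the upper 2-fold line and Creb3l2 beyond the lower one.

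The wider pathway was read from 7 lists with 109 genes besides the 10, and the 10 genes also stand in the lists they belong to. In HC-like over pre-HC-like cells, 29 of 104 such genes with at least 10 CPM were at least 2-fold higher and 1 lower, close to the 23.1% of all genes, but the lists differed. The list of the ATF4 arm and integrated stress response had 15 of 30 genes higher and none lower, led by Fgf21 (126 against 1.53 CPM, log2 ratio 5.65), Gdf15 (75.4 against 3.01 CPM, 4.25), both secreted stress hormones, and Slc7a11, the cystine transporter (2.92). The list of ER-associated degradation had 6 of 16 higher, led by Derl3 (41.7 against 1.89 CPM, 3.88), Edem1 (1.71) and Sel1l. The list of ER chaperones and folding enzymes had 9 of 28 higher, not far above the 23.1% of all genes, and 1 lower, Fkbp14 (-1.04). Hspa5 and Hsp90b1 of the 10 genes were among the 9. Next to Hspa5 came Ero1l, the oxidase that recharges disulfide isomerases (1.97), and Dnajb9, a BiP co-chaperone (1.79). Of the sensors Eif2ak3, the gene of PERK, was at 1.01 beside Atf6. In contrast, none of 14 translocon and signal peptide genes and 1 of 16 genes of ER to Golgi transport, the collagen export factor Mia3 (1.58), were past the fold. Under the median of ratios, where 11.9% of all genes were higher and 11.2% lower, the ATF4 list had 11 of 30 genes higher and 1 lower, the chaperone list 5 of 28 higher and 4 lower, and the degradation list 3 of 16 higher and none lower, and Eif2ak3 was no longer past the fold.

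Fgf21 was concentrated in HC-like cells. Its level was 126 CPM there and at most 6.11 CPM in any other of the 18 classes. A Fgf21 UMI was present in 34 of 92 HC-like cells (37.0%, exact Clopper-Pearson interval 27.1 to 47.7) and in 18 of 580 pre-HC-like cells (3.103%, 1.85 to 4.86). Its promoter, printed above, holds a CARE match like that of Trib3, as did 12 of the 87 pathway genes besides the 10 with a promoter in the table, Fgf21 included, beside 3.97% of all promoters. Of the same 87 genes, 7 had an ERSE, 2 an ERSE-II and 7 the UPR element. The shares of all promoters were 0.119%, 0.0365% and 0.676% for these. A gene counted if any promoter listed for it matched, whereas the shares are of single promoters. The pathway genes were chosen as genes of this response, so the counts are a description only.

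In mature over immature osteoblast-like cells, where 4.48% of all genes were higher and 14.2% lower, ER to Golgi transport had 6 of 16 genes higher, led by Sec24d (1.53), Sec23a (1.34), coat proteins of collagen-carrying vesicles, and the retrieval receptor Kdelr2 (1.28). Translocon genes had 2 of 14 higher, Ssr4 (1.44) and Sec61b (1.21). No ER chaperone or folding enzyme of 28 was higher and Dnajc10 was lower (-1.15). The ATF4 list had 5 of 27 higher, led by Slc7a11 (3.15), Nupr1 (2.62) and Atf3 (1.40). ER-associated degradation had 2 of 15 higher, Selenos (1.20) and Herpud1 (1.09), and of the sensors Atf6b was lower (-1.10). Under the median of ratios, where 6.96% of all genes were higher and 7.29% lower, transport had 9 of 16 genes higher and the translocon list 4 of 14. The ATF4 list had 9 of 27 higher there and the degradation list 4 of 15. Of the chaperone list 1 gene, Pdia5, was then higher and none lower, and no sensor was lower. Of the OASIS family, Creb3l3 was at 28.3 CPM in the mature against 1.39 CPM in the immature class. In HC-like over pre-HC-like cells Creb3 of that family was higher (1.51).

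Between osteogenic and chondrogenic cells 3 of 102 genes of the lists outside the 10 were higher and 5 lower, beside 17.4% and 9.43% of all genes. The ATF4 list had 2 of 29 higher, Slc7a11 (1.75) and Nupr1 (1.33), and 5 lower, among them Chac1 (-3.25) and Fgf21 (-3.03) beside Trib3. Ero1l was the single chaperone or folding gene lower (-2.40). Under the median of ratios, where 10.7% of all genes were lower, 8 genes of the ATF4 list and 3 of the chaperone list were lower. Between chondro-osteogenic and blood cells, 36 of 100 genes were higher and 9 lower, beside 21.5% and 24.6% of all genes. ER to Golgi transport had 11 of 16 higher, led by Kdelr3 (6.01), Sec24d (3.43) and Lman1 (2.89), chaperones and folding enzymes 14 of 29, led by the collagen-related folding enzyme Fkbp14 (5.16), Pdia5 (3.82) and Txndc5 (2.91), and translocon genes 7 of 14, led by Ssr2 (2.22). The ATF4 list was divided there, with 4 of 28 higher and 5 lower, Slc7a11 lowest at -4.39. Under the median of ratios, 23.7% of all genes were higher in this comparison. The chaperone list then had 19 of 29 higher, transport 12 of 16 and the translocon list 8 of 14.

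**Figure D5:**
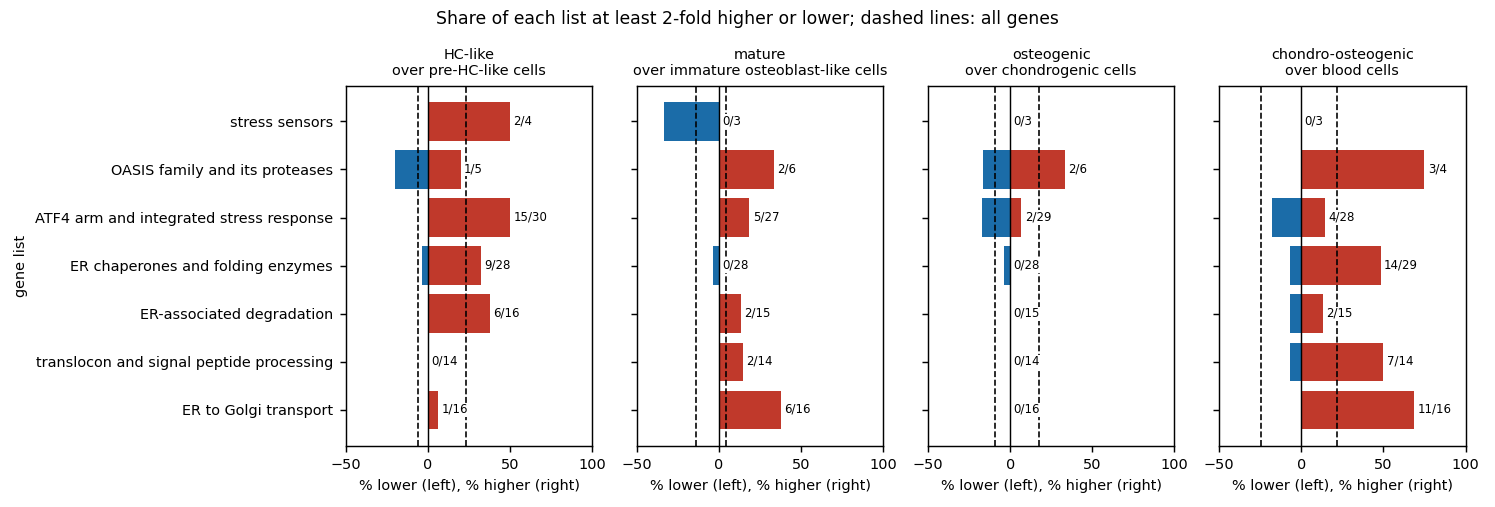
Share of each of the 7 gene lists at least 2-fold higher (red, right) or lower (blue, left) in the 4 comparisons, among genes with at least 10 CPM in either side; the fractions give the count higher. Dashed lines are the shares over all genes. In the HC-like panel the ATF4 list reaches 15 of 30 and the translocon list 0 of 14.

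Immediate early and heat shock genes, which dissociation of tissue can induce, took 0.305% of UMIs in HC-like cells, less than in the other chondrogenic classes (0.462% to 0.666%), and Fos was at 539 CPM against 1313 CPM in pre-HC-like cells. They took 0.426% and 0.495% in immature and mature osteoblast-like cells and 0.0558% to 0.281% in blood classes. The part of dissociation was not tested, neither in the step from pre-HC-like to HC-like cells nor in that from blood to chondro-osteogenic cells. Matrix genes took 6.10% of UMIs in HC-like and 11.03% in pre-HC-like cells, and the part of matrix secretion in the chaperone levels was not tested. Over the 26 clusters, log2 levels of Creb3l2 (r = 0.82), Creb3l1 (0.78) and Pdia4 (0.77) followed the matrix share most closely. Hsp90b1 (0.62), Xbp1 (0.59) and Hspa5 (0.53) came next. Atf4 (0.19), Atf6 (-0.02), Trib3 (-0.16) and Ddit3 (-0.36) were lowest. These values are a description over clusters of 1 library.

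The genes whose levels over the 26 clusters were most like those of each of the 10 fell into similar groups. Among 12289 genes, Pdia4 was closest to Pdia6 (r = 0.97), Prkcsh, Pdxdc1, P4hb and Tmed9. Hsp90b1 was closest to Creld2 (0.94), Pdia4, Pdia6, Dnajc3 and Tm9sf2, and Hspa5 to Slc31a1 (0.90), Dnajc3, Saraf, BC031181 and Wfs1. Trib3 was closest to Slc7a1 (0.90), Chac1, Eif2s2, Mthfd2 and Paics, and Ddit3 to Aars (0.88), Ipp, Vbp1, Cars and Cep95, where Aars and Cars are aminoacyl-tRNA ligases. Creb3l1 was closest to Gxylt2 (0.94), Sema5a, Olfml3, Col1a2 and Magi2, and Creb3l2 to Trim47 (0.96), Fscn1, Nid2, Calml4 and Mras. For Xbp1 (Rabac1, 0.87, then Tmem205, Saraf, Rab2a and Os9), Atf6 (Spty2d1, 0.82, then Lemd2, Zfand5, Rhobtb1 and Chmp4b) and Atf4 (Slc25a33, 0.81, then Srxn1, Taf13, Lgals3 and Got1) the closest gene had a lower r than for the others. Among the 10 genes themselves, Hsp90b1 and Pdia4 (0.93), Hspa5 and Hsp90b1 (0.84) and Ddit3 and Trib3 (0.69) are examples of pairs that went together, with Hspa5 and Creb3l2 each at 0.80 with Pdia4 and Xbp1 at 0.70 to 0.73 with the chaperones, and Creb3l1 and Trib3 were the most opposed (-0.54).

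HC-derived osteoblast-like cells, those with more than 14 WPRE UMIs, were less than 2-fold from the others of their class in most of the 10 genes. There were 114 HC-derived and 402 other cells in the immature class and 143 and 298 in the mature class. Creb3l1 was at 165 CPM in HC-derived and 75.7 CPM in other immature cells, a log2 ratio of 1.11 (0.89 to 1.33), and at 408 and 314 CPM in mature cells, a ratio of 0.38 (0.27 to 0.48). It was the only gene of the 10 at least 2-fold apart with 10 CPM or more, where 2.32% of 8539 genes were at least 2-fold higher and 3.24% lower in immature cells, and 0.801% of 7493 higher and 1.13% lower in mature cells. That ratio in immature cells was 0.10 at a clustering resolution of 1.5 and 0.14 with marked doublets left out, and 0.41 to 0.88 under the other settings that brought it below 2-fold. Atf6 was at 82.0 CPM in HC-derived and 49.5 CPM in other immature cells (0.72, 0.42 to 1.01), and Hspa5 at 772 and 1026 CPM (-0.41, -0.50 to -0.32). Trib3, below 10 CPM in both, was at 1.15 and 5.08 CPM there (-1.50, -2.67 to -0.33), from 2 and 24 UMIs. Within the HC-like class, the 74 cells above the WPRE cutoff and the 18 below it had the same order of Hspa5 (4603 and 4675 CPM), but Trib3 was at 90.1 and 237 CPM and Ddit3 at 163 and 333 CPM. The 18 cells had a median of 26579 UMIs, against 38269 in the 74.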

How the data were processed

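Cells of 1 P6 library were counted by the authors with Cell Ranger 3.1.0 on mm10, and the deposited matrices hold UMI counts per gene and barcode, without normalization, with exogenous sequences (WPRE, tdTomato) in a second matrix. Seurat 3 is named in the submitters' processing notes. The use of strand in counting was not found in the sources used here. The 10 genes and all lists were chosen with earlier results of these data known.

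Barcodes with fewer than 1600 genes, over 10% mitochondrial or over 50% ribosomal protein UMIs were left out. With scanpy 1.11.5 on Python 3.11.15, each cell was scaled to 10000 UMIs before the log was taken, and 2000 variable genes, 30 principal components and 20 neighbours went into Leiden clustering at resolution 1 (seed 1). The 10 genes, the pathway lists, all Mmp genes and Pth1r were left out of the variable genes. Clusters were named from 30 marker lists by the number of markers among the leading genes, with limits on Col1a1, Col2a1 and Ptprc and, for the HC-like name, Col10a1 among the 10 leading genes. This rule was set after the clusters had been seen, and the names may differ from those of the study. Scrublet at an expected rate of 10% marked 588 barcodes (4.15%), which were kept.

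The level of a gene in a class is its share of the class total, in UMIs per 1000000 (CPM), with exact Poisson 95% intervals, shares carry Clopper-Pearson intervals, and log2 ratios were taken with 1 CPM added, which understates ratios of low genes. Intervals cover counting error only, and a count of 0 allows up to 3 counts. The calculation of ratios was tested on simulated data. Genes were named by rule: all 10, the 3 genes of each list with the largest log2 ratio in each direction (at least 10 CPM in either class and 100 UMIs in both together), and the 5 genes most like each. Promoters come from a RefSeq table of GRCm38.p6 and gene positions from GENCODE M21 (GRCm38). Matplotlib 3.10.9 drew the figures.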

Additional observations from a re-analysis of the deposited data

Results flagged for a closer look

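Hsp90b1 went in opposite directions in HC-derived cells of the 2 osteoblast-like classes. Its log2 ratio of HC-derived over other cells was -0.36 in immature and 0.17 in mature osteoblast-like cells, with counting intervals that lay on opposite sides of 0. The difference between the classes was not tested, since both come from 1 library. With tdTomato UMIs in place of WPRE to define HC-derived cells, the ratio in mature cells was -0.05.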

How the results depend on the processing

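The results were recomputed under 15 alternatives fixed beforehand and 2 added after seeing the data (variable genes scaled to unit variance, and HC-like cells above the WPRE cutoff only). The list counts under median-of-ratios scaling were also added after seeing the data. The 16 ratios of at least 2-fold kept their direction in 226 of 226 values and stayed past the fold in 219. Over all 40 ratios of the 4 comparisons, 262 of 570 values under the alternatives lay outside the counting interval of the main setting and 308 inside it. The counting intervals thus do not cover the effect of processing choices. No cluster was HC-like with 3000 variable genes or with scaled variable genes, so that no value of HC-like cells could be given there, while 53 to 147 cells were HC-like under the other settings. The count higher in HC-like over pre-HC-like cells was 3 instead of 5 with up to 20% mitochondrial UMIs and under median-of-ratios scaling. With at most 5% mitochondrial UMIs it was 1 instead of 2 in mature over immature osteoblast-like cells, where Xbp1 was at 0.94, and Pdia4 joined the genes higher in HC-like over pre-HC-like cells (1.004). Creb3l1, at 0.72 there, was at -0.23 with at most 5% mitochondrial UMIs but at least 2-fold higher at resolutions 0.6 (1.14) and 1.5 (1.49), with minimums of 2000 (1.52) and 1000 genes (1.60) and as a mean over cells (1.06). With 3000 variable genes, 2 genes were higher and 1 lower in osteogenic over chondrogenic cells, and as a mean over cells 1 gene, Ddit3, was lower in chondro-osteogenic than blood cells (-1.01). Creb3l2 over blood was 4.19 at resolution 0.6 and with a minimum of 1000 genes, and Trib3 in HC-like over pre-HC-like cells 1.24 with up to 20% mitochondrial UMIs. The count of genes 2-fold apart in HC-derived osteoblast-like cells was 1, but 3 with 3000 variable genes and 0 at resolutions 0.6 and 1.5, with pathway genes kept among the variable genes, with minimums of 1000 and 2000 genes, with doublets left out, as a mean over cells and with scaled variable genes. The cause was not tested. No paired analysis was possible because there is 1 library and no group to pair with, and no replicate could be left out. Depth limits Trib3 in osteoblast-like cells, which rests on 26 and 32 UMIs.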

Other observations

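In the 4 clusters left without a name, the 10 genes were as follows. The cluster of 157 cells led by Car1 and Pf4 held Trib3 at 119.9 CPM, Asns at 350 CPM and Ddit3 at 129 CPM, with Hspa5 at 366 CPM. The cluster of 329 cells that carried basophil genes (Mcpt8, Prss34) and plasmacytoid dendritic cell genes (Siglech) held Trib3 at 59.7 CPM and Hspa5 at 635 CPM. The clusters of 148 and 87 cells, which combined neutrophil or haemoglobin genes with Col2a1 at 26902 and 35452 CPM, held Creb3l2 at 108 and 133 CPM, and 113 and 41 of their cells were marked as doublets. The 449 barcodes left out for more than 10% mitochondrial UMIs differed from the cells kept by log2 ratios of 0.60 in Atf6, 0.36 in Hspa5 and -0.82 in Trib3. Their ratios were 0.67 in Col10a1, 0.54 in Col1a1 and -0.16 in Col2a1. With up to 20% mitochondrial UMIs the HC-like class held 147 cells instead of 92, and the pre-HC-like class 572 instead of 580. The mitochondrial limit therefore affects which cells stand for the HC-like class.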
